A study of Homo sapiens with 4 samples.

Results

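The genes described here are 9 receptor tyrosine kinase genes and 1 ligand gene: AXL, MERTK and TYRO3 (the TAM receptors) with their ligand GAS6, the HGF receptor MET, the FGF receptors FGFR1, FGFR2, FGFR3 and FGFR4, and IGF1R. They are 10 of 61228 genes in the count files and were picked by symbol, with no measured value in the rule. Earlier results of these data were known when they were chosen. Their transcripts were compared in H1792, a human lung adenocarcinoma cell line whose genotype is labelled WT, after 96 h with the solvent DMSO (2 libraries) or with ACBI1 (2 libraries). ACBI1 is a PROTAC, a bifunctional molecule that brings the chromatin remodelling ATPases SMARCA2 and SMARCA4, and the related subunit PBRM1, to a ubiquitin ligase for destruction. The labels write its dose as 1 mM, an unusual size for such a compound. Cells of both groups grew in RPMI-1640 with fetal bovine serum, which itself carries growth factors. All libraries come from a single cell line, and the labels do not say whether the 2 of a group came from separate cultures, so p-values measure only the spread between these libraries. Since these are bulk RNA samples, fewer cells that express a gene and less RNA per cell cannot be told apart.

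Receptor tyrosine kinases span the plasma membrane. A ligand outside brings receptor chains together, the kinase parts inside phosphorylate each other, and adaptors then pass the signal to the RAS-MAPK and PI3K-AKT routes. AXL, MERTK and TYRO3 bind the vitamin K-dependent proteins GAS6 and protein S; MET binds hepatocyte growth factor (HGF); the FGF receptors bind fibroblast growth factors together with heparan sulphate; and IGF1R binds the insulin-like growth factors. In lung cancer, AXL, MET, FGFR1 and IGF1R are known for carrying growth signals when EGFR or the RAS route is blocked, and AXL is linked to a mesenchymal cell state.

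None of the receptor genes, nor GAS6, passed the test for a difference between ACBI1 and DMSO. Of the 10 genes, 9 passed the filter on low counts and 0 of these 9 were called by edgeR's quasi-likelihood test (Benjamini-Hochberg adjusted p under 0.05), in a comparison that called 17.4% of all 19159 genes tested (6.75% higher and 10.6% lower with ACBI1). At an unadjusted p under 0.05 there was 1, FGFR3, against 33.9% of all genes, and neither DESeq2 nor limma-voom called any of the 9. With no filter on low counts edgeR did call 2 of the 10, AXL lower (log2 change -0.90, adjusted p 0.000238) and FGFR3 higher (1.85, adjusted p 0.00516). That fit called 5518 of 32871 genes in all (16.8%). In the filtered comparison, genes of the surrounding pathways did pass the test. Of 159 further genes from 8 lists of ligands, co-receptors, transducers, feedback regulators and other receptor kinases, 122 were tested and 34 were called (27.9%), 9 higher and 25 lower with ACBI1. The lists were chosen with earlier results of these data known, so that share is not independent of them. Falls included the MAPK phosphatase genes DUSP4 and DUSP5, the heparan sulphate proteoglycan gene SDC4, the receptor-restraining gene LRIG1 and the IGF-releasing protease gene PAPPA. IL17RD, GRB14 and IGF2 were among the rises.

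Gene counts summed to 64281850 to 86010100 per library, and levels are given as CPM, the counts of a gene relative to the TMM-scaled size of its library. SMARCA4, whose protein the compound removes, stood at 284 and 216 CPM with DMSO and at 414 and 398 with ACBI1 (log2 change 0.70, edgeR adjusted p 0.0583); SMARCA2 and PBRM1 were not called either. The labelled lung epithelial origin was checked on markers. KRT7, KRT8 and KRT18 were at 140 to 680 CPM with DMSO and 58.7 to 179 with ACBI1, EPCAM was at 2.78 to 15.6 CPM, CDH1 had 4 to 16 counts per library, and of the alveolar genes NKX2-1 and SFTPA1 had 0 counts in every library. The 6 epithelial markers, with KRT19, summed to 982 and 1035 CPM with DMSO and to 323 and 202 with ACBI1. Of the 5 tested, 4 were called lower, against 10.6% of all genes. Defining leukocyte genes were at or near 0 (PTPRC 0 to 2 counts, CD3E 0). The 5 fibroblast markers summed to 349 and 762 CPM with DMSO and to 72.4 and 226 with ACBI1. The 4 endothelial markers summed to 12.6 and 48.5 CPM with DMSO and to 0.0112 and 0.0610 with ACBI1, nearly all of it PECAM1. The part of these shifts in the values given next was not tested.

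To order the receptors, CPM were divided by the length of all annotated exons of a gene in kilobases (GENCODE 29, GRCh38, the assembly that the submitters' processing notes name as hg38). Across 58 receptor tyrosine kinase genes, AXL had ranks 1 and 2 in the DMSO libraries and 1 and 4 in the ACBI1 libraries, and MET had ranks 2 and 1, then 3 and 1. With DMSO, AXL was at 67.6 ± 26.9 and MET at 52.6 ± 2.81 CPM per kb (SD, n = 2), and their library values overlapped. With ACBI1 the order of the pair was the other way, MET at 47.7 ± 12.9 and AXL at 36.5 ± 18.0 CPM per kb, again with overlapping libraries. Next came TYRO3 at 8.12 ± 1.16 and IGF1R at 7.40 ± 0.871 CPM per kb with DMSO, which overlapped each other, and then FGFR1 at 5.51 ± 1.22. With ACBI1 these 3 were at 8.66 ± 1.68, 9.99 ± 1.99 and 6.04 ± 1.45 CPM per kb. MERTK (2.17 ± 0.949 and 3.03 ± 0.224 CPM per kb with DMSO and ACBI1) and FGFR4 (1.41 ± 1.39 and 0.936 ± 0.365) followed, overlapping with DMSO but not with ACBI1. GAS6 and FGFR3 were at 0.204 CPM per kb or less in every library, and FGFR2 was close to absent. All annotated exons of FGFR1 add up to 13842 bases, and its longest transcript has 6216. Dividing by the longest transcript in place of all exons raised FGFR1 to 12.3 CPM per kb with DMSO and 13.4 with ACBI1 and put it next after AXL and MET in both groups, with library values that overlapped those of TYRO3.

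**Figure D1:**
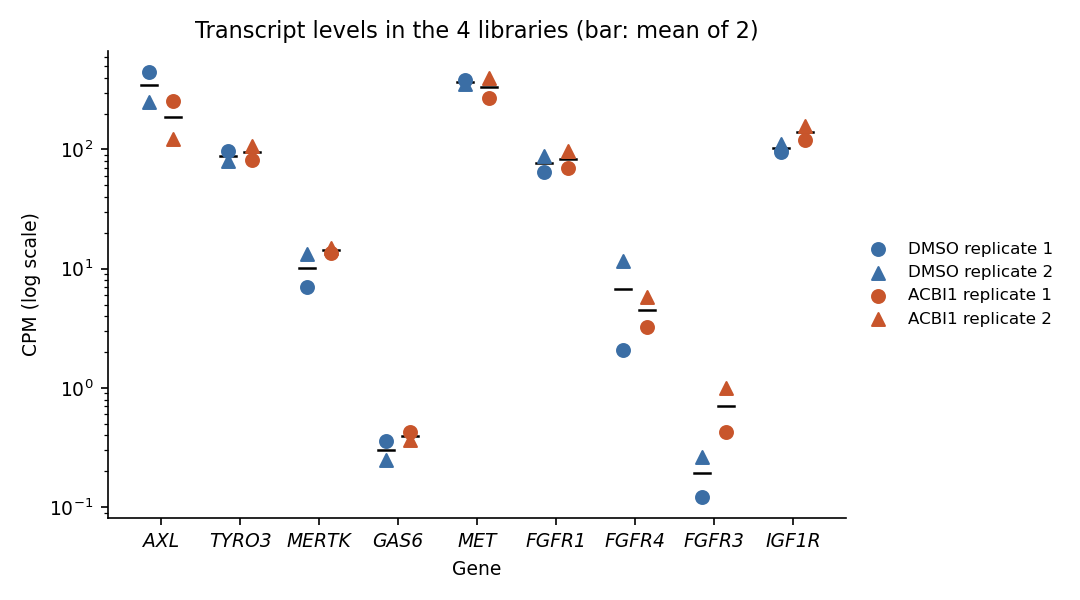
Transcript level in CPM (log scale) of the receptor genes and GAS6 in each of the 4 libraries; circles are replicate 1 and triangles replicate 2, blue is DMSO, orange is ACBI1, and bars are means of 2. AXL and MET span 122 to 447 CPM and lie above the rest except in ACBI1 replicate 2, where IGF1R (159 CPM) is above AXL (122 CPM); GAS6 and FGFR3 lie under 1 CPM, and FGFR2 (2 counts in all) is not drawn.

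The sequence 5′ of the transcription start is printed for the 3 receptors with the most counts, AXL, MET and IGF1R, and for FGFR2, which had almost none, so that an abundant and a near-silent receptor can be set side by side. Each is the 250 bases before the first start that RefSeq lists (GRCh38.p14), 5′ to 3′ on the strand of the gene, in lower case with every GC box (GGGCGG, or CCGCCC for the other strand) in capitals.
AXL, chr19:41218973-41219222, plus strand: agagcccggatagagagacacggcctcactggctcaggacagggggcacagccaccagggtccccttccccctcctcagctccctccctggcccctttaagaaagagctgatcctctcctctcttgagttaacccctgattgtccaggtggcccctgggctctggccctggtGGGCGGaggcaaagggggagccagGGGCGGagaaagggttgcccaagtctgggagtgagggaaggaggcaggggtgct
MET, chr7:116671946-116672195, plus strand: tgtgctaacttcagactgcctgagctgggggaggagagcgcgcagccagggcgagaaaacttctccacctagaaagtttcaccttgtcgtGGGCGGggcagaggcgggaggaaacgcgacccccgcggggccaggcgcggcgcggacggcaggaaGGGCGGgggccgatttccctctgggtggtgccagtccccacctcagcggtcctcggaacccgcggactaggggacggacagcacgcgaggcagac
IGF1R, chr15:98648289-98648538, plus strand: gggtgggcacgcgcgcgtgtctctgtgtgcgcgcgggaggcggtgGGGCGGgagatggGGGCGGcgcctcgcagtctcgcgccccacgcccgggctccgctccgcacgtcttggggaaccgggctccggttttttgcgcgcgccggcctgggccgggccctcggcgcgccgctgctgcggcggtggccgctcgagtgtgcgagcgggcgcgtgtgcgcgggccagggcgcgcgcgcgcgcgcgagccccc
FGFR2, chr10:121598445-121598694, minus strand: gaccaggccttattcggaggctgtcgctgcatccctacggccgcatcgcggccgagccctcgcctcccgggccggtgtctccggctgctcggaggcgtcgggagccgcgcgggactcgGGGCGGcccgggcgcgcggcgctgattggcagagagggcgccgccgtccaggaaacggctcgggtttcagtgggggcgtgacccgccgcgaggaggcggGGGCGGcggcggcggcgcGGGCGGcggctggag
The printed windows of AXL, MET and IGF1R hold 2 GC boxes each and that of FGFR2 holds 3. Of all 35116 windows of this length, 42.6% hold at least 1. G and C make up 64.4% of the AXL window, 68.4% of the MET window, 81.2% of the IGF1R window and 78.4% of the FGFR2 window, against a median of 58% over all windows. The AXL window has 4 CpG dinucleotides, the MET window 24, the IGF1R window 48 and the FGFR2 window 42. The AP-1 motif TGANTCA (a palindrome apart from its middle base, N for any base; in 6.57% of all windows) is in none of these 4. Of 16 such windows for 9 of the genes, 1 holds it, the first start of TYRO3. At least 1 GC box is in 10 of the 16. Start 2 of AXL and starts 2, 3 and 5 of FGFR2 hold 0, and start 4 of FGFR2 holds 1. A link between these motifs and the transcript levels was not tested.

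AXL, the TAM receptor best known in tumour cells, lies at chr19:41219203-41261766, with 1.30% of its exonic length shared with another gene. Replicates 1 and 2 of DMSO gave 36367 and 18019 counts (447 and 250 CPM), and those of ACBI1 gave 22689 and 8024 (253 and 122 CPM). The groups overlapped, since ACBI1 replicate 1 lay just above DMSO replicate 2. The log2 change was -0.89 (SE 0.41, edgeR adjusted p 0.189), and its 95% interval, unadjusted, reached from -1.90 to 0.11, or 0.269 to 1.08 times the DMSO level. The replicates of AXL differed by 1.78-fold with DMSO and 2.07-fold with ACBI1, when the median ratio was 1.18 and 1.16 over genes that averaged 5 CPM or more. Replicate 1 was the higher one in both groups. Without DMSO replicate 2 the log2 change was -1.25 and AXL was called lower (adjusted p 0.0223). Without DMSO replicate 1 it was -0.41 (adjusted p 0.436), without ACBI1 replicate 1 it was -1.50 (adjusted p 0.0686), and without ACBI1 replicate 2 it was -0.47 (adjusted p 0.492).

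TYRO3 (chr15:41557675-41583586), a TAM receptor found widely in epithelial and neural tissue, was at 97.9 and 79.9 CPM with DMSO and at 81.8 and 108 CPM with ACBI1. The groups overlapped, and the log2 change was 0.09 (SE 0.20, adjusted p 0.790). The interval of that change, -0.40 to 0.59, corresponds to 0.757 to 1.50 times the DMSO level. Its sign turned without DMSO replicate 2 (-0.05) and without ACBI1 replicate 2 (-0.13).

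MERTK (chr2:111898479-112029561), which serves the uptake of dying cells in macrophages and the retina, was at 7.05 and 13.4 CPM with DMSO and at 13.5 and 15.01 CPM with ACBI1. Both ACBI1 libraries were higher, although the lower of them was barely above DMSO replicate 2. The log2 change was 0.48 (SE 0.33, adjusted p 0.354), which was 0.10 without DMSO replicate 1 and 1.01 without DMSO replicate 2, and was not called in either case (adjusted p 0.860 and 0.0559).

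As a family, the TAM receptors were mostly AXL. Its share of the summed CPM per kb of AXL, TYRO3 and MERTK was 89.2% and 82.7% in the DMSO libraries and 82.6% and 64.5% in the ACBI1 libraries. TYRO3 made up 9.21% and 12.4% with DMSO and 12.6% and 26.8% with ACBI1, and MERTK 1.54% and 4.84% against 4.83% and 8.68%. AXL held the smaller share in both ACBI1 libraries, but ACBI1 replicate 1 and DMSO replicate 2 were nearly equal; with 2 against 2 libraries an exact permutation test cannot go below p = 0.333, and none was run.

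**Figure D2:**
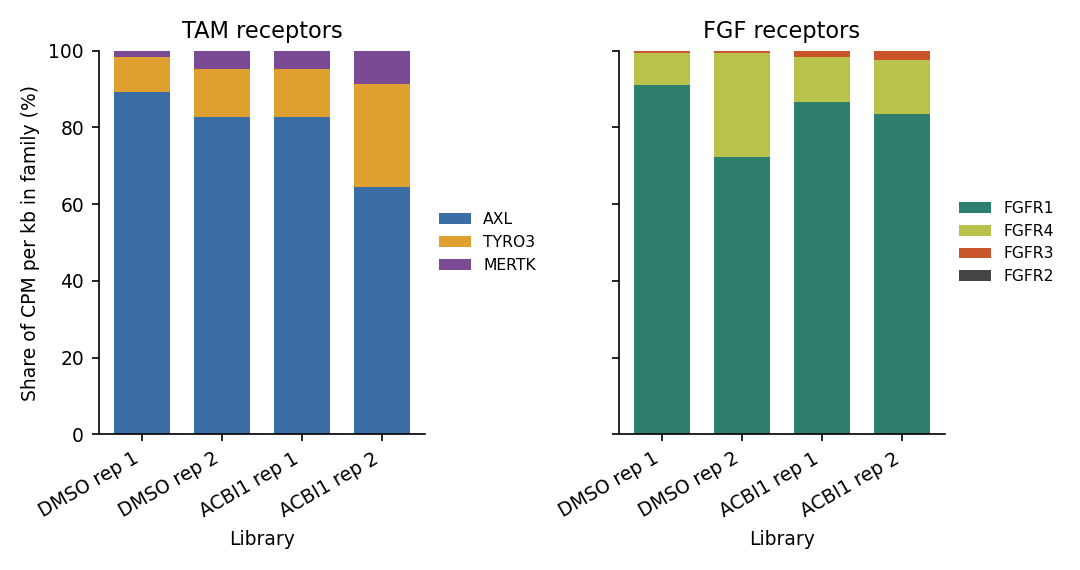
Share of each receptor in the summed CPM per kb of its family (percent, 0 to 100), 1 stacked bar per library. AXL takes 64.5% to 89.2% of the TAM receptors, with ACBI1 replicate 2 the lowest, and FGFR1 takes 72.3% to 91.1% of the FGF receptors, with DMSO replicate 2 the lowest.

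Of the TAM ligands, GAS6 (chr13:113820549-113864067) was close to silent. It had 29 and 18 counts with DMSO and 38 and 24 with ACBI1, or 0.356, 0.250, 0.424 and 0.366 CPM, and 7.01% of its exonic length is shared with GAS6-AS1. The ACBI1 libraries were narrowly higher, with a log2 change of 0.38 (SE 0.44, adjusted p 0.595), which was 0.66 without DMSO replicate 1 and 0.15 without DMSO replicate 2. PROS1, which encodes protein S, was more abundant, at 5.44 and 7.38 CPM with DMSO and 9.04 and 10.0 with ACBI1. Its log2 change of 0.57 was not called (adjusted p 0.185). In the list of TAM ligands, processing enzymes and sheddases, 7 of 8 genes were tested. Their median log2 change was -0.57 against 0.01 over all genes tested. Of these 7, 1 was called higher and 1 lower, against 6.75% and 10.6% of all genes. LGALS3, the galectin described as a MERTK ligand, fell from 87.2 ± 12.5 to 33.3 ± 3.38 CPM (SD, n = 2; log2 change -1.39, adjusted p 0.00753). TUB, described as another, rose from 2.48 ± 0.0416 to 6.37 ± 0.514 CPM (log2 change 1.36, adjusted p 0.0246), a call that was lost without DMSO replicate 2 and without either ACBI1 library (adjusted p 0.0518, 0.0987 and 0.0644). The sheddase genes ADAM10 and ADAM17, whose products cut AXL and MERTK from the surface, had log2 changes of -0.63 and -0.67. Both missed the threshold by edgeR (adjusted p 0.0708 and 0.0568) but were called by DESeq2. Other genes share 13.6% of the exonic length of ADAM17.

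MET (chr7:116672390-116798386) was the most even of the abundant receptors with DMSO, at 384 and 356 CPM. The ACBI1 libraries, at 272 and 400 CPM, lay on both sides of these. The log2 change was -0.14 (SE 0.23, adjusted p 0.713), with an interval from -0.69 to 0.41, that is, 0.619 to 1.33 times the DMSO level. Without ACBI1 replicate 1 the sign turned (0.12). A fall to 0.619 times or a rise to 1.33 times the DMSO level is thus still inside what these 4 libraries allow.

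In the list of genes that supply, restrain or partner MET, 13 of 16 were tested, 1 was called higher and 5 lower, against 6.75% and 10.6% of all genes, and 7 were not called. The median log2 change was -0.76. Without ACBI1 replicate 2 it was -0.84, and fewer genes were called, both in this list and over all genes. LRIG1, a transmembrane protein that promotes the removal of MET and EGFR from the surface, fell from 107 ± 7.39 to 35.0 ± 0.356 CPM (SD, n = 2; log2 change -1.61, adjusted p 0.00368), with 12.9% of its exonic length shared with SLC25A26. CBLB, a ubiquitin ligase of the family that tags activated receptors, had a log2 change of -1.52 (adjusted p 0.00996). CBL, which was not called, was higher with ACBI1 by a log2 change of 0.27 (adjusted p 0.264). ST14, the matriptase that cleaves HGF into its active form, fell from 7.34 ± 4.79 to 0.581 ± 0.347 CPM (log2 change -3.64, adjusted p 0.0185). MST1, a relative of HGF that binds the receptor MST1R, fell by 1.56 on the log2 scale (adjusted p 0.0237), and PLXNB1, a plexin that associates with MET, by 0.76 (adjusted p 0.0270). MST1 lost its call without ACBI1 replicate 2 (adjusted p 0.0824), and PLXNB1 without DMSO replicate 1 and without either ACBI1 library (adjusted p 0.0627, 0.148 and 0.104). The ligand gene HGF had 1 and 0 counts with DMSO and 15 and 39 with ACBI1. The ratio of its counts per library size was 53.4, with an exact 95% counting interval from 9.19 to 2148. HGF was called higher (adjusted p 0.0285) but not without ACBI1 replicate 2 (adjusted p 0.1097), and at 0.168 and 0.595 CPM it remained rare with ACBI1.

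FGFR1 (chr8:38400215-38468834), a receptor often amplified in squamous lung tumours, was the main FGF receptor of these cells, at 64.4 and 88.3 CPM with DMSO and 69.4 and 97.8 with ACBI1. Replicate 2 was the higher one in both groups and the groups overlapped. The log2 change was 0.13 (SE 0.24, adjusted p 0.747), with an interval from -0.45 to 0.72. It was -0.07 without DMSO replicate 1 and -0.15 without ACBI1 replicate 2. Exons of other genes, among them LETM2, cover 2.12% of its exonic length.

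FGFR4 (chr5:177086886-177098144), which pairs with the co-receptor KLB in liver, had the widest replicate spread of the 9 genes. With DMSO it was at 2.08 CPM in replicate 1 and 11.5 in replicate 2, and with ACBI1 at 3.27 and 5.77 CPM. Both ACBI1 libraries lay between the DMSO libraries, whose 5.56-fold ratio was larger than that of 99.8% of genes averaging 5 CPM or more. The log2 change of -0.59 (SE 0.75, adjusted p 0.630) depended on which DMSO library was kept: it was -1.35 and called lower without DMSO replicate 1 (adjusted p 0.0241), and 1.12 without DMSO replicate 2 (adjusted p 0.172). By limma-voom it was -0.17 (adjusted p 0.905). The summed fibroblast markers, given above, were also higher in DMSO replicate 2 than in DMSO replicate 1; their part in the FGFR4 values was not tested.

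FGFR3 (chr4:1793293-1808872), known in urothelial cancer, had the largest log2 change of the 9 genes at very low levels. It had 10 and 19 counts with DMSO and 38 and 65 with ACBI1, or 0.123, 0.264, 0.424 and 0.991 CPM. The groups did not overlap. The log2 change was 1.86 (SE 0.63, adjusted p 0.0950), with an unadjusted interval from 0.33 to 3.40, and it was 1.13 without ACBI1 replicate 2 (adjusted p 0.402). FGFR2 (chr10:121478334-121598458) showed 2 counts in replicate 1 of ACBI1, none in any other library, and was not tested. Over the depths of all 4 libraries, a count of 0 would allow up to 0.0335 to 0.0458 CPM, for counting error only. FGFR2 transcripts were thus not detectable in 3 of the 4 libraries.

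Within the FGF receptors, FGFR1 made up 91.1% and 72.3% of the summed CPM per kb with DMSO and 86.7% and 83.5% with ACBI1. FGFR4 supplied most of the rest, 8.42% and 27.1% with DMSO and 11.7% and 14.1% with ACBI1. FGFR3 was at 0.496% and 0.618% with DMSO and at 1.52% and 2.42% with ACBI1, higher in both ACBI1 libraries. With the longest transcript as length, the share of FGFR1 was 79.1% to 93.7% over the libraries.

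The ligands of these receptors were few. Of 18 FGF genes, 7 had 0 counts in every library and 7 could be tested, with a median log2 change of 0.09. FGF2, the ligand with the highest CPM, was at 67.6 and 35.3 CPM with DMSO and 65.7 and 44.2 with ACBI1 (log2 change 0.09, adjusted p 0.876; 11.9% of its exonic length is shared with NUDT6), and FGF5 at 8.62 and 9.44 against 8.88 and 10.5 CPM. Of the 7 tested, 3 were called, against 17.4% of all genes. The 3 called ligands all fell and all were rare. Counts of FGF1 summed to 205 in the DMSO libraries and to 3 in the ACBI1 libraries, which per library size is 69.1-fold lower, with an exact 95% counting interval from 23.3 to 338 (adjusted p 0.00698). FGF7, the keratinocyte growth factor, had a log2 change of -2.93 (111 against 15 counts, adjusted p 0.0255), and FGF21, a metabolic hormone, one of -3.63 (52 against 4 counts, adjusted p 0.0351). FGF7 and FGF21 were not called without DMSO replicate 2 (adjusted p 0.0695 and 0.113), without ACBI1 replicate 1 (0.0762 and 0.172) or without ACBI1 replicate 2 (0.0834 and 0.0625).

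Among FGF co-receptors, binding proteins and adaptors, 9 of 15 genes were tested, with a median log2 change of -0.21. Of these 9, 1 was called higher and 2 lower, against 6.75% and 10.6% of all genes. SDC4, a syndecan whose heparan sulphate chains help FGF bind its receptor, fell from 412 ± 45.8 to 67.8 ± 1.19 CPM (SD, n = 2; log2 change -2.60, adjusted p 0.00193). SDC1, of the same family, rose from 60.3 ± 1.97 to 108 ± 16.9 CPM (log2 change 0.84, adjusted p 0.0264), which was not called without ACBI1 replicate 2 (adjusted p 0.133). FLRT1, a membrane protein that binds FGF receptors, had 458 counts with DMSO and 8 with ACBI1 (log2 change -5.72, adjusted p 0.0108), with 25.3% of its exonic length shared with other genes. The Klotho co-receptor genes KL and KLB had at most 10 counts in any library, and the docking protein gene FRS2 had a log2 change of -0.16 (adjusted p 0.527).

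IGF1R (chr15:98648539-98964530) was at 94.5 and 112 CPM with DMSO and at 120 and 159 CPM with ACBI1. Both ACBI1 libraries were higher than both DMSO libraries, by a log2 change of 0.43 (SE 0.20, adjusted p 0.190) whose interval reached from -0.06 to 0.92. Leaving out single libraries gave 0.20 to 0.63, with no call. With MERTK, GAS6 and FGFR3, this makes 4 of the 9 tested genes whose groups did not overlap, when 63.2% of all genes tested did not. All 4 were higher with ACBI1, where the share of all genes was 31.1%, and 0 were lower, where it was 32.2%.

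**Figure D3:**
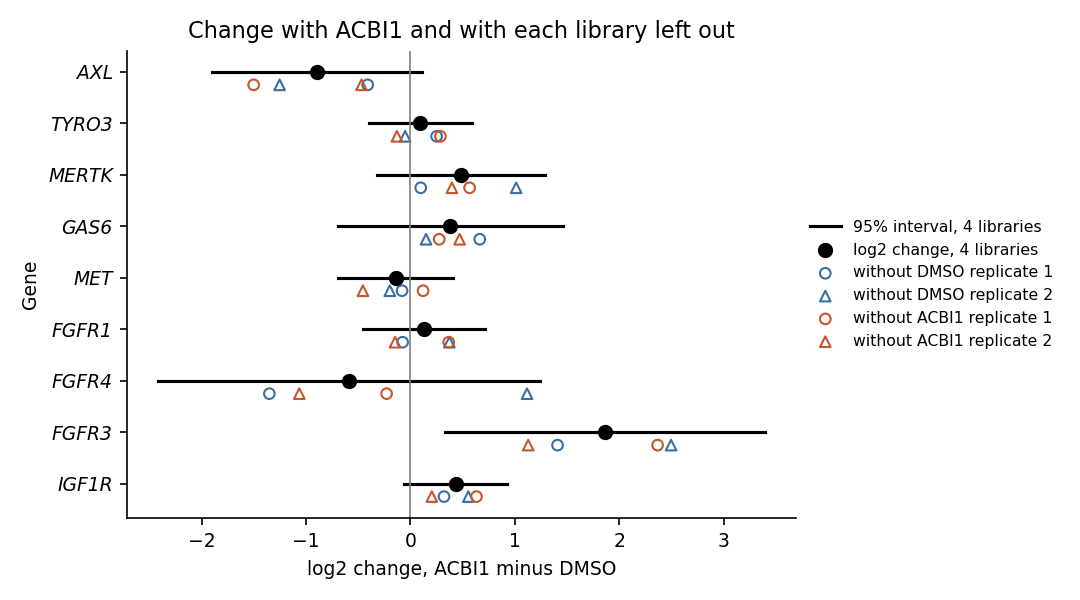
log2 change with ACBI1 minus DMSO (x axis) for each gene tested; black points and lines are the fit on 4 libraries with its unadjusted 95% interval, open symbols are fits without 1 library (blue DMSO, orange ACBI1). The interval of FGFR3 alone lies to 1 side of 0 (0.33 to 3.40), and FGFR4 moves from -1.35 to 1.12 with the DMSO library left out.

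The IGF list held larger changes than the receptor. Of its 12 genes 9 were tested, and 2 were called higher and 2 lower, against 6.75% and 10.6% of all genes. The median log2 change was -0.67, against 0.01 over all genes tested. PAPPA, a protease that frees IGF from its binding proteins, fell from 360 ± 65.2 to 86.7 ± 0.316 CPM (SD, n = 2; log2 change -2.05, adjusted p 0.00365), with 21.2% of its exonic length shared with PAPPA-AS1. Its homologue PAPPA2 had a log2 change of -4.66 (16.1 and 5.73 against 0.715 and 0.122 CPM, adjusted p 0.0204). GRB14, an adaptor that blocks the kinases of INSR and IGF1R, rose from 3.31 ± 0.402 to 17.03 ± 2.86 CPM (log2 change 2.36, adjusted p 0.00479). IGF2, a ligand of IGF1R, rose from 0.568 ± 0.317 to 7.51 ± 4.35 CPM (log2 change 3.73, adjusted p 0.0140). However, 75.0% of its exonic length is shared with other annotated entries, so its counts are uncertain. Among these are a further entry of the same symbol and INS-IGF2. IGF1 transcripts gave 2 counts over all 4 libraries, with 82.4% of the exonic length shared with HELLPAR. For INSR the log2 change was -0.17 (adjusted p 0.473). The substrate genes IRS1 and IRS2 had log2 changes of 0.93 and -0.67 (edgeR adjusted p 0.0846 and 0.0540), and DESeq2 called both. GRB10, in the same list as GRB14, went from 121 ± 42.0 to 67.2 ± 4.99 CPM (log2 change -0.85, edgeR adjusted p 0.0701). DESeq2 called 8 of the 9 tested genes, GRB10 among them, 3 higher and 5 lower, against 23.5% of all genes.

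Below the receptors, all 27 shared RAS-MAPK and PI3K transducer genes were tested. Their median log2 change was 0.10. By edgeR 1 was called, against 17.4% of all genes, and by DESeq2 4 were called, against 23.5% of all genes. HRAS rose from 16.1 ± 2.23 to 28.7 ± 1.25 CPM (SD, n = 2; log2 change 0.83, adjusted p 0.0318) and was not called without DMSO replicate 2 or either ACBI1 library (adjusted p 0.101, 0.113 and 0.137).

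Genes induced by ERK activity include many that feed back on the receptors. All 17 were tested, 7 were called lower and 1 higher, against 10.6% and 6.75% of all genes, and the median log2 change was -0.91. DUSP5, a nuclear phosphatase of ERK, fell from 105 and 119 CPM with DMSO to 15.3 and 12.8 with ACBI1 (log2 change -3.00, SE 0.18, adjusted p 0.00141). DUSP4, a related phosphatase, fell from 103 and 146 to 20.8 and 21.0 CPM (log2 change -2.58, adjusted p 0.00259). SPRED3, a membrane inhibitor of the step from RAS to RAF, fell from 10.6 and 13.3 to 2.57 and 2.75 CPM (log2 change -2.17, adjusted p 0.00651). IER3, an immediate early gene, fell from 803 and 1285 to 62.6 and 99.5 CPM (log2 change -3.69, adjusted p 0.00366), with 26.5% of its exonic length shared with IER3-AS1. The list did not move as 1 block. IL17RD, an inhibitor of FGF signalling at the membrane, rose from 7.77 and 11.6 to 32.1 and 43.4 CPM (log2 change 1.97, adjusted p 0.00864). DUSP6, the cytoplasmic ERK phosphatase that is a usual reporter of FGF and MAPK activity, was at 194 and 278 CPM with DMSO and 149 and 227 with ACBI1 (log2 change -0.33, adjusted p 0.446); 40.5% of its exonic length is shared with AC024909.2. The ETS factor genes ETV4 and ETV5 had log2 changes of -0.18 and -0.46 (adjusted p 0.478 and 0.0985), while their relative ETV1 fell with a log2 change of -1.95 (adjusted p 0.00259). SPRY2 and EGR1 had log2 changes of -1.63 and -1.17 (adjusted p 0.0384 and 0.0155). SPRY2 was not called without either ACBI1 library (adjusted p 0.121 and 0.0555) and was at -0.92 without DMSO replicate 2. EGR1 was not called without ACBI1 replicate 1 (adjusted p 0.0869).

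**Figure D4:**
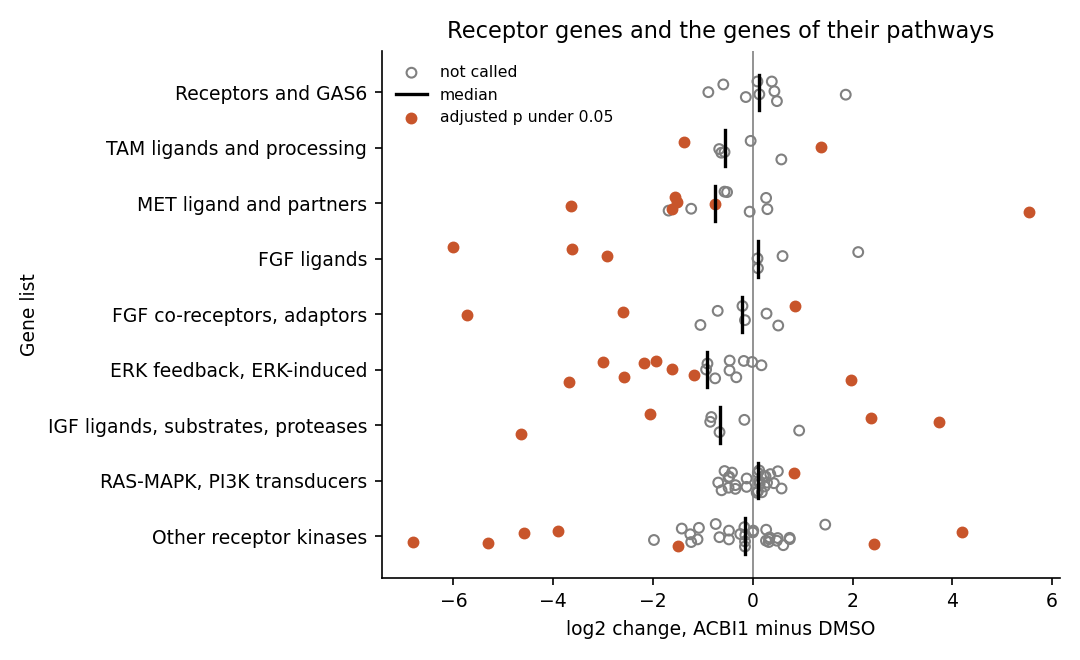
log2 change with ACBI1 minus DMSO (x axis) of each gene tested in the receptor group and in 8 lists of pathway genes; filled points have an edgeR adjusted p under 0.05, open points do not, and vertical bars are list medians. The 9 receptor and GAS6 points are all open, the 27 transducers hold 1 filled point, and the 17 ERK feedback and ERK-induced genes hold 8, of which 7 are on the left.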

How the data were processed

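The deposited values are raw counts of reads per gene symbol, 1 file for each of the 4 libraries, with 61228 genes and 5 closing lines that name no gene. The submitters' processing notes name TopHat2 2.1.1, HTSeq 0.11.0 and hg38, without their roles; the annotation and the strand setting are not given in the sources used here. Without a strand setting, reads of overlapping and antisense genes cannot be told apart, so exon overlap is given for any receptor gene or GAS6 that has it, and for other named pathway genes from 10% of exonic length. The closing lines were left out; gene counts were 84.6% to 86.1% of all reads listed. Groups and replicate numbers come from the sample titles.

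Genes were filtered with filterByExpr (minimum count 10, minimum total 15), which kept 19159, scaled by TMM and compared by the quasi-likelihood test of edgeR 4.0.16 under R 4.3.3 (glmQLFit, glmQLFTest, two-sided, treatment only), adjusted over all genes tested at 0.05. SE is the log2 change divided by the square root of F, and intervals of a change are at 95%, unadjusted. CPM use TMM-scaled library sizes. Intervals and floors for counts cover counting error only. Alternatives were DESeq2 1.42.0, limma-voom (limma 3.58.1), other scalings and filters, the replicate number as a block, and each library left out in turn, where a lone library is assumed to vary like the other group. Scripts were tested on simulated counts. Annotation and exon lengths came from GENCODE 29, promoter windows from RefSeq (GRCh38.p14), with no entry used for FGFR1.

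The genes and lists were chosen with earlier results of these data known. Named are the 10 genes, the degrader's 3 target genes and, per list, up to 4 called genes with the largest change. No receptor gene was called, so the planned search for genes with a like profile was not made. Other pathway genes (PROS1, ADAM10, ADAM17, CBL, CBLB, PLXNB1, FGF2, FGF5, KL, KLB, FRS2, IGF1, INSR, IRS1, IRS2, GRB10, IL17RD, DUSP6, ETV1, ETV4, ETV5, SPRY2, EGR1, DDR2 and EPHA4) were named after their values were seen. Some genes of the lists are counted but not reported here by name.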

Additional observations from a re-analysis of the deposited data

How the results depend on the processing

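The 9 tested genes were refitted under 12 alternatives, which gave 106 values; 92 kept both direction and side of the threshold. Under the scalings, DESeq2, limma-voom and the filter at a mean of 5 CPM no receptor was called. In the pathway lists DESeq2 called 50 of 122 genes (41.0%, against 23.5% of all genes). There limma-voom called 32 (26.2%, against 17.3% of all genes). With no filter on low counts 5518 of 32871 genes (16.8%) were called, 58 of them from the pathway lists. Of the receptors 2 were called, AXL (-0.90, adjusted p 0.000238) and FGFR3 (1.85, adjusted p 0.00516). The cause was not tested. With the replicate number as a block 7909 of 19159 genes (41.3%) were called, 77 of them from the pathway lists. In that fit 4 of the 9 tested genes passed: AXL (-0.93, adjusted p 0.000325), MERTK (0.55, adjusted p 0.0459), FGFR3 (1.85, adjusted p 0.00560) and IGF1R (0.42, adjusted p 0.0220). FGFR4 was at -0.21 there. Deviations of same-numbered libraries from their group means had a correlation of 0.44 across genes, but there are only 2 pairs and the labels do not say that a number marks a shared batch, so the block is not used in the report.

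Leaving out 1 library at a time gave 1379 to 4292 calls over all genes, 0 to 1 among the receptors and 25 to 42 in the pathway lists, where 20 of the 34 calls were kept in all 4 fits and no sign turned. The log2 change then ranged from -1.50 to -0.41 for AXL, -0.13 to 0.29 for TYRO3, -0.46 to 0.12 for MET, -0.15 to 0.37 for FGFR1, -1.35 to 1.12 for FGFR4, 0.10 to 1.01 for MERTK, 0.15 to 0.66 for GAS6, 1.13 to 2.50 for FGFR3 and 0.20 to 0.63 for IGF1R. FGFR2, FGFR3 and GAS6 rest on at most 65 counts per library, so counting error adds to the spread between libraries there.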

Other observations

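The other receptor tyrosine kinases give a frame for the genes described above. Of 49, 35 were tested, 2 were called higher and 5 lower, which is 20.0% against 17.4% of all genes, and the median log2 change was -0.16. PDGFRA, the PDGF receptor of mesenchymal cells, fell from 10.5 and 37.9 CPM with DMSO to 0.614 and 1.42 with ACBI1 (log2 change -4.59, edgeR adjusted p 0.0134), with 15.8% of its exonic length shared with another gene. The collagen receptor gene DDR2, the most abundant of the 7 by CPM, fell from 270 and 210 to 113 and 55.4 CPM (log2 change -1.51, adjusted p 0.0355) and was not called without ACBI1 replicate 2 (adjusted p 0.0630). EPHA4 had a log2 change of -3.90 (adjusted p 0.0136).

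MUSK, ROS1 and EPHA10 were called at low counts. MUSK had 28 counts with DMSO and 0 with ACBI1, at least 9.44-fold lower against a floor of 3 counts over the group; it was not called without either ACBI1 library (adjusted p 0.106 and 0.0707) and not tested without DMSO replicate 1. Counts of ROS1 summed to 85 in the DMSO libraries and to 2 in the ACBI1 libraries, which per library size is 43.0-fold lower, with an exact 95% counting interval from 11.5 to 361 (adjusted p 0.0154), and its fitted log2 change of -5.31 was -8.36 without ACBI1 replicate 1. EPHA10 was at 0.0614 and 0.0417 CPM with DMSO and 1.71 and 0.229 with ACBI1 (log2 change 4.20, adjusted p 0.0466), or 2.11 and not called without ACBI1 replicate 1 (adjusted p 0.261).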
